A study of Chlorocebus aethiops with 10 samples.

Results

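The cytosolic ribosomal protein genes are those that encode the protein part of the ribosome outside mitochondria. They were taken by symbol: RPL (large subunit) or RPS (small subunit) with a number, optionally followed by A, X or L, or the stalk genes RPLP0 to RPLP2 and RPSA. The pattern matched 72 of 16583 measured genes, 46 of the large and 26 of the small subunit, on 87 array features. Among them were 4 paralogues of core ribosomal proteins, RPL3L, RPL10L, RPL39L and RPS27L. RPLP0 and RPSA fit the pattern but were not among the measured genes. The set is not the whole ribosome, and ribosomal protein genes outside it were not analysed here, apart from a few named with the related lists.

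The samples were liver biopsies from adult, obese, female Chlorocebus aethiops (African green monkeys), all on a high-fat diet for 12 weeks, with 1 one-colour array per animal. The antimiR-33a/b group (n = 5) had received an LNA-antimiR, a locked nucleic acid oligonucleotide against the microRNAs miR-33a and miR-33b, at 20 mg/kg on day 0 and then 5 mg/kg every week under the skin. The vehicle group (n = 5) had received 0.9% NaCl, and biopsies of both groups were taken on day 57. A biopsy holds every cell type of the liver, so a change in the share of a cell type and a change of RNA per cell cannot be told apart.

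A ribosome is built from ribosomal RNA and about equal numbers of each ribosomal protein. The small subunit reads the messenger RNA, and the large subunit joins the amino acids. The mRNAs of ribosomal proteins start with a run of pyrimidines, the TOP motif, through which the kinase mTOR and the binding protein LARP1 control their translation together. Hepatocytes secrete most plasma proteins and hold large numbers of ribosomes.

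The deposited values were centred per feature, so a value compares animals for 1 gene and not genes with each other, and levels of liver markers could not be checked. The log base is not stated and was taken as 2, so every fold below rests on that. Array medians lay between -0.054 and 0.061. In limma, 20.5% of all genes passed an adjusted p of 0.05 (13.7% higher and 6.8% lower in treated animals). These are the shares against which the counts of members are read. Ribosomal protein genes have many processed pseudogenes and some near-identical paralogues, so the signal of a gene and its copies may be mixed.

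Ribosomal protein mRNAs were mostly higher in treated livers. Of the 72 genes, 41 (56.9%) rose, 1 fell (RPS25) and 30 did not pass, at a limma adjusted p of 0.05 over all genes. The difference, antimiR-33a/b minus vehicle, was above 0 for 64 genes (59.2% of all genes were above 0) and below 0 for 8, and its median was 0.26 on the log2 scale (1.20-fold), against 0.039 over all genes. In 34 members every treated animal lay above every vehicle animal, which was so for 8.79% of all genes. In 1 member, RPS25, every treated animal lay below, which was so for 4.52% of all genes.

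The 5 vehicle animals had member medians of -0.35, -0.17, -0.14, -0.16 and -0.068 in centred log2 units. The 5 treated animals had 0.084, 0.038, 0.16, 0.047 and -0.026. The groups did not overlap, although treated animal 5 and vehicle animal 5 lay close together. Vehicle animal 1 was the lowest of its group in 62 of the 72 genes, and vehicle animal 5 the highest in 42. Treated animal 3 was the highest of its group in 38 genes and treated animal 5 the lowest in 44. Many members thus moved together from animal to animal. Across 2556 pairs of members, the median correlation over the 5 vehicle animals was 0.66 and over the 5 treated animals 0.41. Of these pairs, 90.4% correlated positively in vehicle and 71.8% in treated animals. Neither the correlations nor the counts of lowest and highest animals were computed over all genes. The correlations describe shared arrays and carry no test.

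**Figure D1:**
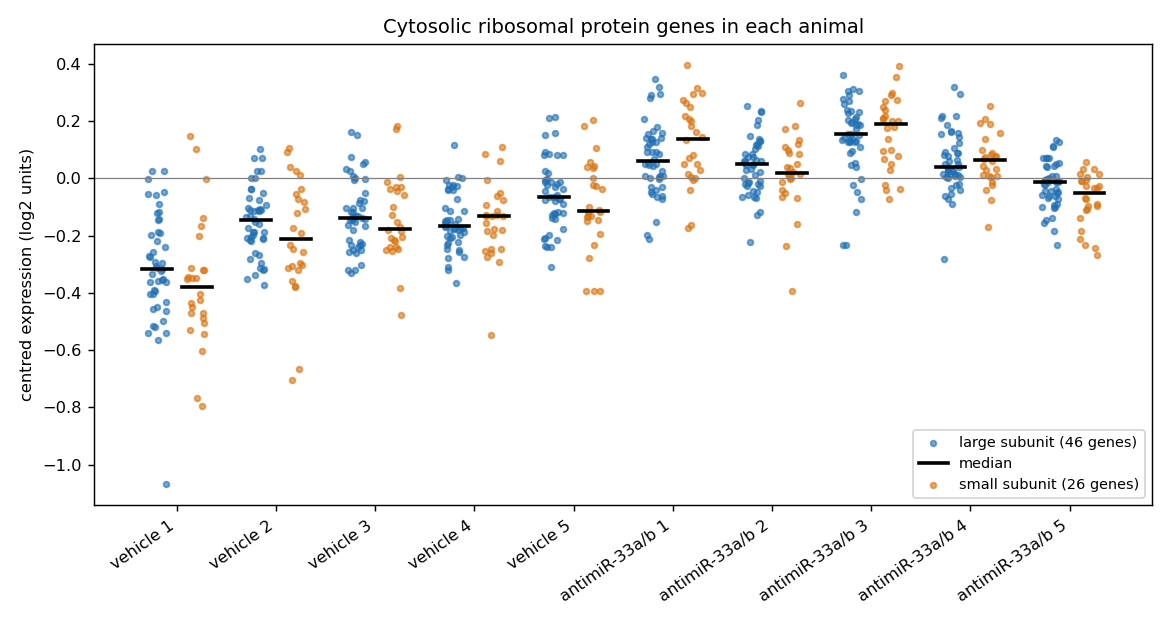
Centred expression in log2 units (vertical axis) of each of the 72 ribosomal protein genes in each animal (horizontal axis), large-subunit genes in blue and small-subunit genes in orange, with black lines at the medians. Medians of both subunits were below 0 in all vehicle animals, lowest in vehicle animal 1, and above 0 in treated animals 1 to 4.

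Without vehicle animal 1 the number of members that rose was 30 (7.77% of all genes rose) and the median difference 0.21. Without treated animal 3 these were 29 (8.40% of all genes) and 0.23, the lowest count among the 10 fits that left out 1 animal. The count was between 32 and 44 in the other 8, in which 8.34% to 15.2% of all genes rose. Of the 42 called members, 29 passed in all 10 of these fits, as did 1708 of the 3399 called genes in the whole table. The other 13 were RPL11, RPL22, RPL26, RPL27, RPL32, RPL35A, RPL36A, RPLP2, RPS9, RPS14, RPS15, RPS26 and RPS27L, each missing the threshold in 1 to 8 fits. After quantile normalization 35 members were higher (10.8% of all genes) and 1 lower (9.07% of all genes), and RPL22, RPL26, RPL32, RPS7, RPS9 and RPS15 were no longer called (adjusted p = 0.0511 to 0.0971).

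In the large subunit 27 of 46 genes rose, 0 fell in limma (0 also at an unadjusted p under 0.05) and the median difference was 0.24 (1.18-fold). In the small subunit 14 of 26 rose, 1 fell, and the median was 0.30 (1.23-fold). The large-subunit medians of the vehicle animals were -0.31, -0.15, -0.14, -0.17 and -0.064, and those of the treated animals 0.062, 0.050, 0.15, 0.041 and -0.013. The small-subunit medians were -0.38, -0.21, -0.18, -0.13 and -0.11 in vehicle animals, and 0.14, 0.020, 0.19, 0.065 and -0.051 in treated animals. Each subunit was higher in every treated animal than in any vehicle animal.

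The large-subunit median minus the small-subunit median within an animal was 0.036 ± 0.041 (SD, n = 5) in vehicle and -0.014 ± 0.048 (SD, n = 5) in treated animals. The groups overlapped, with vehicle values of 0.063, 0.065, 0.038, -0.035 and 0.048 and treated values of -0.077, 0.030, -0.036, -0.025 and 0.038. The difference between groups, -0.050, was about the size of the spread between animals, and no test was made of it. Taken instead as the median of the gene differences, large minus small was -0.053, and it was -0.018 after quantile normalization and -0.015 with every feature on its own.

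**Figure D2:**
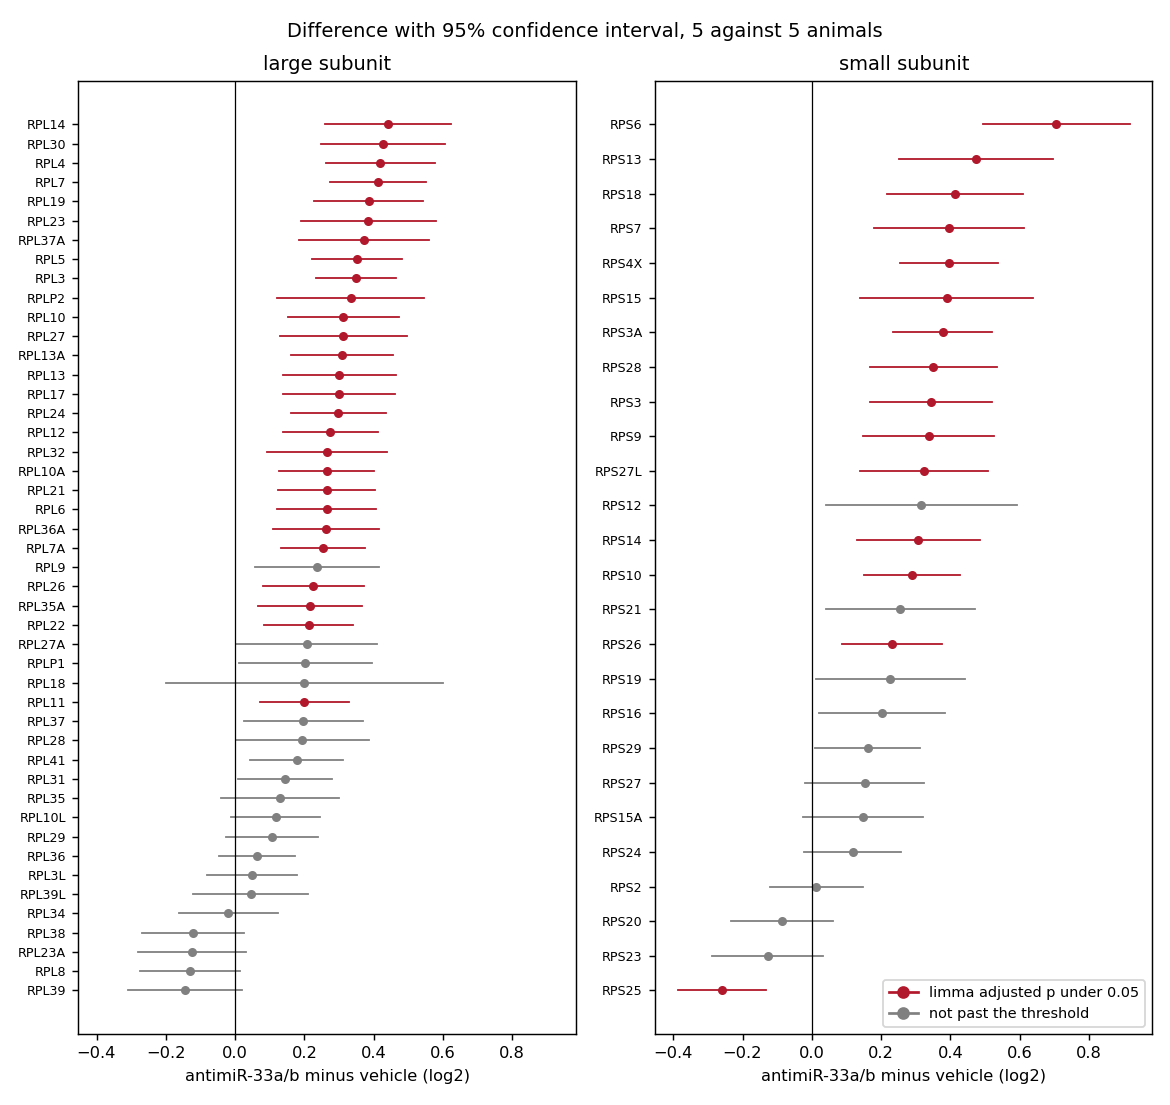
Difference, antimiR-33a/b minus vehicle, in log2 units (horizontal axis) for each member (vertical axis), with 95% confidence intervals from limma, for the large subunit (left) and the small subunit (right). Red marks an adjusted p under 0.05: 27 large-subunit and 15 small-subunit genes, of which RPS25 alone lies below 0.

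RPS6, the small-subunit protein phosphorylated by the S6 kinases downstream of mTOR, had the largest difference of all members. Its values were -0.77, -0.66, -0.48, -0.55 and -0.28 in vehicle animals and 0.21, 0.0083, 0.39, 0.19 and -0.0083 in treated animals. All treated animals lay above all vehicle animals. The difference was 0.71 (SE 0.098, 95% confidence interval 0.49 to 0.92, 1.63-fold), with a limma adjusted p of 0.0016, and it ranked 30 of all 16583 genes by size of rise.

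Other small-subunit genes with large rises were RPS13, RPS18, RPS7, RPS4X and RPS15. RPS13 had vehicle values of -0.60, -0.38, -0.25, -0.25 and -0.12 and treated values of 0.30, 0.0026, 0.35, 0.21 and -0.088. The groups were apart by a narrow gap, and the difference was 0.47 (SE 0.10, limma adjusted p = 0.0090). RPS18, in the subunit's head, rose by 0.41 (SE 0.091, adjusted p = 0.0095), from -0.53, -0.32, -0.13, -0.25 and -0.14 to 0.18, 0.26, 0.27, 0.074 and -0.097. Treated animal 5 was again the lowest of its group, just above the vehicle range.

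RPS4X, the X-linked form of the S4 protein, rose by 0.40 (SE 0.066, limma adjusted p = 0.0029), from -0.43, -0.30, -0.25, -0.13 and -0.39 to 0.14, 0.041, 0.17, 0.069 and 0.056. All treated animals lay above 0 and all vehicle animals below it. RPS7, an assembly protein of the small subunit, also rose by 0.40, with a wider spread (SE 0.10, adjusted p = 0.0168). RPS7 values were -0.49, -0.26, -0.38, -0.091 and -0.39 in vehicle animals and 0.25, 0.035, 0.27, 0.044 and -0.23 in treated animals. Here the groups overlapped, since treated animal 5 lay within the vehicle range.

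At the side where mRNA enters and is decoded, RPS3 rose by 0.34 (limma adjusted p = 0.0130) and RPS15 by 0.39 (adjusted p = 0.0327). RPS2 (0.013, adjusted p = 0.905) and RPS23 (-0.13, adjusted p = 0.237) did not pass. RPS15 values were -0.80, -0.17, -0.22, -0.13 and -0.19 in vehicle animals and 0.26, -0.012, 0.18, 0.031 and -0.026 in treated animals, with vehicle animal 1 far below the rest. Without that animal the difference was 0.27 (adjusted p = 0.0362), and RPS15 missed the threshold in 3 of the other fits without 1 animal (adjusted p up to 0.0753). RPS23 values were 0.15, 0.040, 0.17, -0.050 and 0.21 in vehicle animals and -0.17, 0.17, -0.037, 0.012 and -0.096 in treated animals. RPS2 values were -0.14, 0.092, -0.030, 0.085 and -0.13, then -0.0064, -0.00042, -0.073, -0.011 and 0.033. Both genes overlapped between the groups. At the side where mRNA leaves, RPS14, RPS26 and RPS28 rose by 0.31, 0.23 and 0.35 (adjusted p = 0.0215, 0.0281 and 0.0141). In all 3 genes the treated animals lay above the vehicle animals. RPS26 missed the threshold in 5 and RPS14 in 3 of the 10 fits without 1 animal (adjusted p up to 0.0741 and 0.0560).

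RPS25, a small-subunit protein known to be needed for translation from several viral internal ribosome entry sites, was the 1 member that fell. Its vehicle values were 0.10, 0.11, 0.18, 0.11 and 0.18 and its treated values -0.16, -0.067, -0.039, -0.075 and -0.27. All treated animals lay below all vehicle animals. The difference was -0.26 (SE 0.059, 95% confidence interval -0.39 to -0.13, 0.835-fold), with a limma adjusted p of 0.0105, and it passed in all 10 fits without 1 animal.

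The other small-subunit genes at the low end of the differences did not pass. RPS20, also in the head of the subunit, had vehicle values of -0.0024, 0.027, 0.0037, 0.062 and 0.11 and treated values of 0.13, -0.063, 0.051, -0.17 and -0.18, a difference of -0.086 (95% confidence interval -0.23 to 0.063). RPS24 differed by 0.12 (-0.022 to 0.26), with vehicle values of -0.20, -0.055, -0.058, -0.13 and 0.036 and treated values of -0.040, 0.18, 0.078, -0.042 and 0.0055. RPS15A differed by 0.15 (-0.026 to 0.32), with vehicle values of -0.31, 0.013, -0.013, -0.11 and 0.041 and treated values of 0.017, 0.12, 0.029, 0.25 and -0.067. In these 3 genes the groups overlapped, and the intervals include 0 as well as a rise of 0.063 or more.

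**Figure D3:**
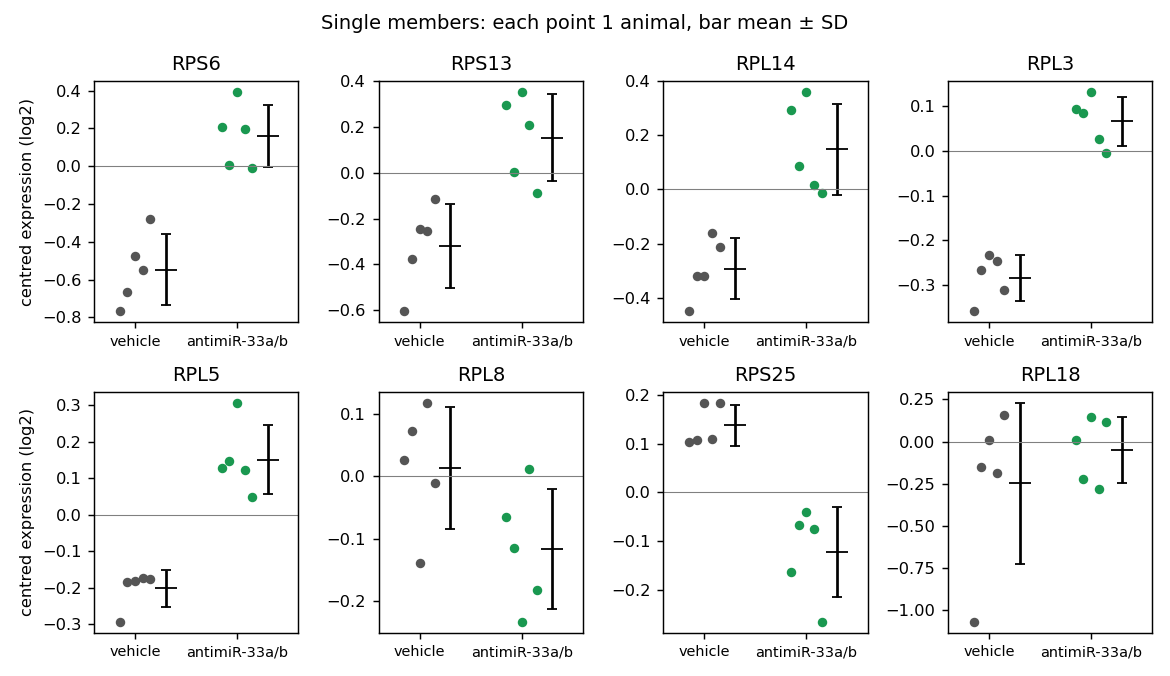
Centred log2 expression (vertical axis, its own range in each panel) of 8 members in vehicle and antimiR-33a/b animals, each point 1 animal and the bar the mean ± SD (n = 5). RPS6, RPS13, RPL14, RPL3 and RPL5 were higher in all treated animals, RPS25 was lower in all of them, and RPL8 and RPL18 overlapped.

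In the large subunit, RPL14, RPL30, RPL4, RPL7, RPL19 and RPL23 showed the 6 largest rises, from 0.44 for RPL14 to 0.38 for RPL23. RPL14 values were -0.45, -0.32, -0.32, -0.16 and -0.21 in vehicle animals and 0.29, 0.086, 0.36, 0.015 and -0.012 in treated animals. All treated animals were above the vehicle range, and the difference had an SE of 0.084 (limma adjusted p = 0.0051). RPL7 went from -0.46, -0.35, -0.30, -0.37 and -0.21 to 0.085, 0.076, 0.21, 0.0016 and -0.0016, a difference of 0.41 (SE 0.064, adjusted p = 0.0021). Its groups were also apart.

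RPL4, which helps line the peptide exit tunnel, rose by 0.42 (SE 0.073, limma adjusted p = 0.0036), from -0.36, -0.11, -0.33, -0.14 and -0.24 to 0.32, 0.011, 0.24, 0.22 and 0.13. RPL30 rose by 0.43 (SE 0.083, adjusted p = 0.0054), from -0.54, -0.34, -0.25, -0.31 and -0.12 to 0.21, 0.20, 0.20, 0.014 and -0.046. RPL19, which takes part in a bridge to the small subunit, rose by 0.39 (SE 0.073, adjusted p = 0.0049), from -0.46, -0.31, -0.26, -0.32 and -0.24 to 0.14, 0.024, 0.27, -0.054 and -0.043. These 3 genes had treated animals above the whole vehicle range. RPL23 rose from -0.52, -0.37, -0.32, -0.28 and -0.038 to 0.13, 0.048, 0.28, 0.041 and -0.10 (SE 0.091, adjusted p = 0.0123). It was the 1 gene of these 6 in which a treated animal, animal 5, lay within the vehicle range.

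Near the catalytic centre and the sites where elongation factors bind, RPL3 and RPL10 rose by 0.35 and 0.31 (limma adjusted p = 0.0021 and 0.0132). RPL8, also close to the catalytic centre, differed by -0.13 and did not pass (adjusted p = 0.180). RPL3 values were -0.36, -0.27, -0.23, -0.25 and -0.31 in vehicle animals and 0.093, 0.084, 0.13, 0.026 and -0.0045 in treated animals. The spread within each group was small beside the gap between groups (SD 0.051 in vehicle and 0.055 in treated animals, n = 5 each). RPL10 values were -0.29, -0.29, -0.16, -0.11 and -0.21, then 0.29, -0.064, 0.21, 0.0090 and 0.043, wider among treated animals and without overlap.

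RPL5 and RPL11, which with 5S ribosomal RNA form the particle that can bind MDM2 when ribosome assembly fails, both rose. RPL5 values were -0.29, -0.19, -0.18, -0.17 and -0.18 in vehicle animals and 0.13, 0.15, 0.31, 0.12 and 0.049 in treated animals. All treated animals lay above 0 and all vehicle animals below it, and the difference was 0.35 (SE 0.060, limma adjusted p = 0.0032). RPL11 rose by 0.20 (SE 0.060, adjusted p = 0.0332), from -0.22, -0.051, -0.13, -0.14 and -0.012 to 0.17, 0.076, 0.13, 0.080 and -0.014. Treated animal 5 lay at the top of the vehicle range. RPL11 missed the threshold in 6 of the 10 fits without 1 animal, with adjusted p up to 0.0883.

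The stalk recruits elongation factors to the ribosome. Of the 4 stalk genes looked up, 3 were measured and RPLP0 was not. RPLP2 rose by 0.33 (SE 0.099, limma adjusted p = 0.0318), from -0.54, -0.22, -0.10, -0.25 and -0.072 to 0.092, -0.045, 0.23, 0.29 and -0.091, and the stalk base protein RPL12 rose by 0.27 (SE 0.064, adjusted p = 0.0117). RPLP1 differed by 0.20 (SE 0.089, adjusted p = 0.122). Its vehicle values were -0.40, -0.16, -0.13, -0.21 and 0.081 and its treated values 0.16, -0.047, 0.17, 0.049 and -0.14, with overlap. The features of RPLP1 were unlike each other, with differences of 0.30 (adjusted p = 0.0345 when every feature was tested on its own) and 0.10 (adjusted p = 0.434). RPLP2 missed the threshold in 5 of the 10 fits without 1 animal.

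Around the exit of the peptide tunnel, 4 of 8 genes rose (RPL17, RPL19, RPL22 and RPL26, by 0.21 to 0.39), and RPL23A, RPL31, RPL35 and RPL39 did not pass. RPL26 missed the threshold in 6 and RPL22 in 4 of the 10 fits without 1 animal, and both missed it after quantile normalization (limma adjusted p = 0.0755 and 0.0971). RPL23A differed by -0.12 and RPL39 by -0.14, so the members at this site did not share a direction of difference. RPL39 values were -0.12, 3.9e-05, 0.15, 0.0032 and 0.086 in vehicle animals and -0.20, 0.0019, -0.23, 0.060 and -0.23 in treated animals, which overlapped. RPL23A values were 0.027, -0.068, 0.16, -0.040 and 0.21, then -0.21, -0.025, 0.047, -0.032 and -0.099.

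RPL8 (-0.13), RPL38 (-0.12), RPS20 (-0.086) and RPL34 (-0.019) were the other members below 0, none past the threshold (limma adjusted p = 0.180 to 0.864). RPL8, a protein close to the catalytic centre, had vehicle values of 0.026, 0.072, -0.14, 0.12 and -0.011 and treated values of -0.066, -0.12, -0.23, 0.011 and -0.18. RPL38, needed for the translation of certain Hox mRNAs in mouse embryos, had -0.088, 0.10, 0.056, -0.024 and 0.21, then -0.15, -0.0085, -0.048, 0.017 and -0.16. RPL34 had -0.047, 0.026, 0.074, -0.0061 and 0.091, then -0.060, 0.11, -0.023, 0.16 and -0.15. All 3 overlapped between the groups.

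Genes mutated in human Diamond-Blackfan anaemia rose in 9 of the 17 measured and fell in 0 (limma; 0 also at an unadjusted p under 0.05), with a median of 0.22. Of the 9, RPL11, RPL26, RPL27, RPL35A and RPS26 missed the threshold in 2 to 8 of the 10 fits without 1 animal. With the covariate described further on, 1 of the 17, RPL5, passed. RPS19, the gene most often mutated, differed by 0.23 (SE 0.10, adjusted p = 0.124). Its values were -0.40, -0.30, -0.042, -0.18 and -0.10 in vehicle animals and 0.20, -0.16, 0.20, 0.099 and -0.24 in treated animals. Treated animals 2 and 5 lay within the vehicle range. RPL18, another of these genes, had the widest spread: vehicle values of -1.07, -0.15, 0.0075, -0.18 and 0.16 and treated values of 0.0092, -0.22, 0.14, -0.28 and 0.11. Its difference of 0.20 (SE 0.19, adjusted p = 0.463) became -0.0050 without vehicle animal 1.

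Paralogue members that are tissue-restricted in human and mouse did not pass: RPL3L, the striated-muscle form of RPL3, differed by 0.048 (95% confidence interval -0.081 to 0.18), RPL10L, the testis form of RPL10, by 0.12 (-0.011 to 0.25), and RPL39L, a testis-rich form of RPL39, by 0.045 (-0.12 to 0.21). RPS27L, a paralogue of RPS27 that p53 can induce in human cells, rose by 0.32 (SE 0.086, limma adjusted p = 0.0206). RPL3L values were -0.0032, -0.10, 0.052, -0.031 and -0.074, then 0.048, -0.059, 0.13, -0.088 and 0.053. RPL10L values were -0.053, -0.094, -0.076, -0.023 and -0.013, then 0.0044, 0.12, 0.19, 0.089 and -0.069. RPL39L values were -0.19, -0.036, 0.033, -0.10 and 0.15, then -0.072, 0.10, -0.12, 0.16 and 0.0072. All 3 overlapped. RPS27L stood apart less clearly than the leading members, with 4 treated animals above the vehicle range: its vehicle values were -0.32, -0.31, -0.24, -0.26 and -0.022 and its treated values 0.30, 0.017, 0.21, 0.083 and -0.14. RPS27 itself differed by 0.15 (SE 0.080, adjusted p = 0.186), from -0.35, -0.081, -0.036, -0.13 and 0.057 to 0.082, 0.11, -0.023, 0.16 and -0.11, and the difference between these 2 genes was not tested. RPS27L missed the threshold in 3 of the 10 fits without 1 animal.

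Of the 14 members with more than 1 feature, 13 had features with the same sign of difference, RPL34 being the exception (-0.039 and 0.00011). Sizes varied within a gene. RPL14 features differed by 0.35 and 0.53, RPL6 features by 0.37 and 0.16, and RPL41 features by 0.071 and 0.28. RPL41, the smallest ribosomal protein, did not pass on the mean of its features (0.18, limma adjusted p = 0.0583), and RPL9 also lay just outside (0.24, adjusted p = 0.0595). RPL35A (0.22, adjusted p = 0.0442) lay just inside and missed the threshold in 8 of the 10 fits without 1 animal.

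Other translation genes also stood higher in treated animals. Of 17 further measured genes whose mRNAs are reported to carry a TOP motif, 11 rose and 0 fell in limma (0 also at an unadjusted p under 0.05), with a median of 0.24. They included EIF4B (0.60, adjusted p = 0.0012), an initiation factor, and PABPC1 (0.55, adjusted p = 0.0046), the cytoplasmic poly(A)-binding protein. Of 12 elongation and termination factors 5 rose, among them EIF5A (0.52, adjusted p = 0.0098) and EEF1G (0.33, adjusted p = 0.0068). Of 15 genes that act on the nascent chain 8 rose, with SRP14 of the signal recognition particle at 0.61 (adjusted p = 0.0016) and BTF3 of the nascent-chain complex at 0.33 (adjusted p = 0.0048). Some genes stand in more than 1 of these lists.

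Ribosome assembly factors rose in 13 of 38 cases and fell in 0 (2 lower at an unadjusted p under 0.05), with a median of 0.16. NOP58 (0.57, limma adjusted p = 0.0048) and NOP56 (0.31, adjusted p = 0.0071), core proteins of the particles that methylate ribosomal RNA, and HEATR1 (0.32, adjusted p = 0.0029), a small-subunit processome protein, were among them. Of 12 genes of RNA polymerase I transcription, POLR1D (0.21, adjusted p = 0.0358) and POLR1C (0.18, adjusted p = 0.0397) rose. This was 16.7% of the list, near the 13.7% of all genes that rose. Neither gene passed in all 10 fits without 1 animal, and 1 of them did not pass after quantile normalization. Of 19 genes of mTOR signalling and TOP mRNA control, 4 rose and 1 fell. CNBP, which binds TOP mRNAs, rose by 0.55 (adjusted p = 0.0021), and RPTOR, the scaffold of mTOR complex 1, fell by 0.30 (adjusted p = 0.0072). The ribosome quality-control genes NEMF (0.47, adjusted p = 0.0014), ABCE1 (0.38, adjusted p = 0.0043) and LTN1 (0.36, adjusted p = 0.0067) were the 3 of 12 ribosome stress genes that rose. Of 6 measured ribosomal protein or related genes outside the symbol pattern, 0 passed in limma, and 1 had an unadjusted p under 0.05: FAU, a small-subunit gene, which differed by 0.22 (adjusted p = 0.0754).

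Other housekeeping families differed in how many genes rose. The mitochondrial ribosome had 28 of 77 genes higher and 1 lower (median 0.18), initiation factors 21 of 51 higher and 1 lower (0.22), and the proteasome 18 of 35 higher and 0 lower (0.27). Near the background of 13.7% were mitochondrial import, with 3 of 22 higher (13.6%, median 0.095), and coat proteins, with 3 of 18 (16.7%, median 0.16). RNA polymerase II subunits had 3 of 12 higher and 1 lower (median 0.062). The 183 genes of 7 expressed families other than the cytosolic ribosome (proteasome, respiratory chain, RNA polymerase II, snRNP, vacuolar sorting, coat and mitochondrial import proteins) had a median of 0.16. The 511 genes of 6 families that liver does not normally express, such as olfactory receptors and keratin-associated proteins, had a median of -0.088. The ribosomal protein median of 0.26 was exceeded by that of 1 of these 7 families, the proteasome, while the other 6 had medians of 0.062 to 0.18. It was not tested against them.

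**Figure D4:**
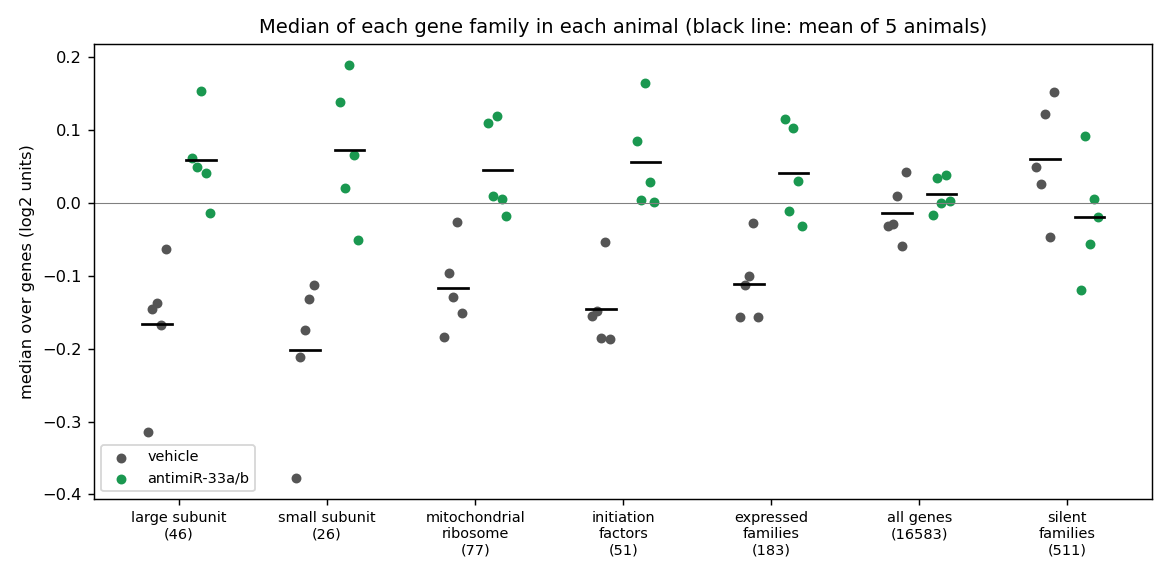
Median over the genes of each family (vertical axis, log2 units) in each animal, vehicle in grey and antimiR-33a/b in green, with the number of genes in brackets and black lines at the means of 5 animals. The 2 subunits of the cytosolic ribosome separate the groups as initiation factors and the mitochondrial ribosome do, while silent families lie the other way and overlap.

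The family contrast, the median of the expressed families minus that of the silent families, was -0.21, -0.14, -0.22, 0.019 and -0.31 in vehicle animals and 0.24, -0.10, 0.16, 0.025 and -0.012 in treated animals. It moved with the groups, with overlap at vehicle animal 4 and treated animals 2 and 5. Among vehicle animals, the highest ribosomal protein median was in animal 5, which had the lowest contrast. Among treated animals, animals 1 and 3 had the highest contrasts (0.24 and 0.16) and also the highest medians (0.084 and 0.16). How the contrast and the medians go together was not tested. With the contrast as a covariate in limma, the median difference of the members was 0.20 (0.085 over all genes) and 64 of 72 were above 0. The number past the threshold fell to 11 higher (10.3% of all genes) and 0 lower (2.53% of all genes; 1 member below 0 at an unadjusted p under 0.05).

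The 11 genes were RPL3, RPL4, RPL5, RPL7, RPL21, RPL28, RPL30, RPL36A, RPS3A, RPS4X and RPS6, of which 10 also passed without the covariate. RPS6 differed by 0.65 (SE 0.14, limma adjusted p = 0.0206), RPL3 by 0.30 (SE 0.062, adjusted p = 0.0193) and RPL7 by 0.41 (SE 0.085, adjusted p = 0.0193). RPL28, a large-subunit protein, went from 0.19 without the covariate to 0.40 (SE 0.093, adjusted p = 0.0246). RPS25 kept its size, at -0.24, and missed the threshold (SE 0.074, adjusted p = 0.0562). With the covariate the median was 0.21 for the large and 0.20 for the small subunit.

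With the covariate, 10.3% of all genes were higher and 2.53% lower in limma, against 13.7% and 6.8% without it. Fewer genes of most other translation lists passed as well, and their counts were not tested against these shares. Of the 17 further TOP mRNAs 2 were higher and 0 lower (0 below 0 at an unadjusted p under 0.05), and PABPC1 was not among them (0.40, limma adjusted p = 0.0686), while EIF4B was (0.60, adjusted p = 0.0132). Of the 12 elongation and termination factors 0 passed in limma (3 above 0 at an unadjusted p under 0.05), EIF5A having an adjusted p of 0.158 and EEF1G of 0.0784. Of the 12 genes of RNA polymerase I transcription 0 passed in limma (3 above and 1 below 0 at an unadjusted p under 0.05). Of the 38 assembly factors 3 were higher and 1 lower, of the 15 nascent-chain genes 4 were higher, and of the 19 genes of mTOR signalling and TOP mRNA control 1 was higher and 2 were lower. NEMF, ABCE1 and LTN1 were again higher.

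**Figure D5:**
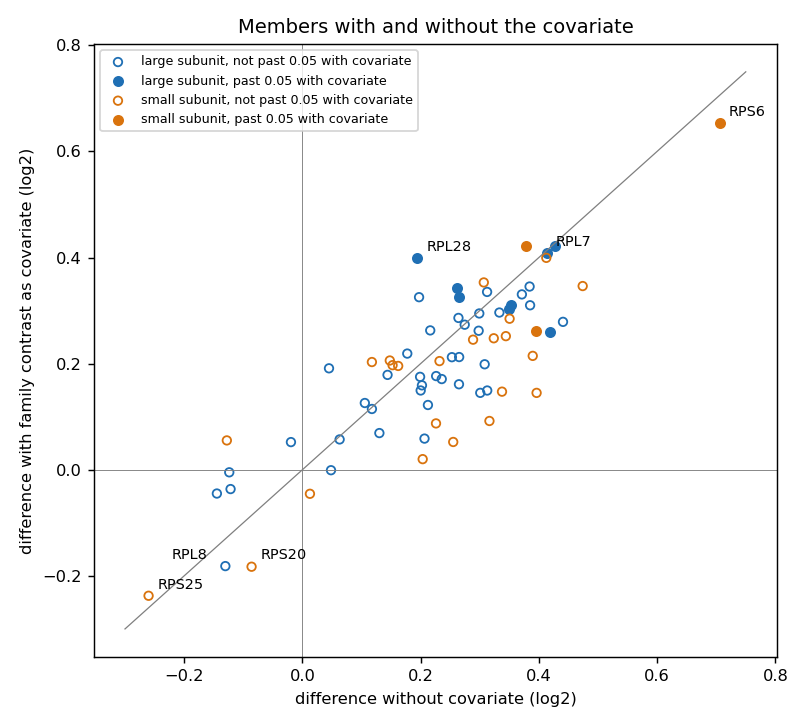
Difference with the family contrast as a covariate (vertical axis, log2 units) against the difference without it (horizontal axis) for the 72 members, with the line of equality. Filled points pass an adjusted p of 0.05 with the covariate (8 large-subunit and 3 small-subunit genes), and RPS6 stands highest on both axes.

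When each array was instead shifted to the median of its expressed families, the median difference over all genes moved by -0.15. The median of the members was then 0.11, with 10 higher (2.74% of all genes) and 7 lower (18.8% of all genes) in limma. The 10, all called without the shift, were RPL3, RPL4, RPL7, RPL14, RPL19, RPL30, RPS4X, RPS6, RPS13 and RPS18. The 7 were RPL8, RPL23A, RPL38, RPL39, RPS20, RPS23 and RPS25. RPS6 differed by 0.55 (adjusted p = 0.0024) and RPS25 by -0.41 (adjusted p = 0.0029) on this scale. Shifted to the silent families instead, 53 members were higher (28.5% of all genes) and 1 lower (4.84% of all genes). Each shift moves the difference of every gene by the same amount, so which members changed sign follows from their size without the shift.

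Some markers of liver and other cell types also passed in limma, beside 13.7% of all genes higher and 6.8% lower. Hepatocyte markers rose in 6 of 11 cases, with list medians of -0.37 to -0.064 in vehicle and -0.10 to 0.14 in treated animals, and the lowest was vehicle animal 1, as for the ribosomal proteins. Endothelial markers rose in 3 of 7 and stellate and matrix markers in 3 of 9. T and NK cell markers rose in 1 and fell in 3 of 10, B and plasma cell markers rose in 2 of 5, and muscle and fat markers rose in 1 and fell in 1 of 5. In all 10 fits without 1 animal, 4 of 6 called hepatocyte, 0 of 3 endothelial and 1 of 3 stellate and matrix markers passed. So did 1 of 4 T and NK cell, 0 of 2 B and plasma cell, and 1 of 2 muscle and fat markers. Of the 3399 called genes in the whole table, 1708 did. Of 10 macrophage, 5 cholangiocyte and 6 red cell or neutrophil markers 0 passed in limma, with 1, 1 and 2 at an unadjusted p under 0.05. Red cell and neutrophil medians ran from -0.76 to 0.28 in vehicle and -0.017 to 1.74 in treated animals, and vehicle animal 1 had the lowest. In the other cell marker lists, animal 1 was not the lowest vehicle animal. Among housekeeping families it was the lowest for the mitochondrial ribosome and the respiratory chain, and not for initiation factors or the proteasome. For endothelial markers it was the highest of the vehicle animals (0.027). The part of these markers in the ribosomal protein result was not tested.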

How the data were processed

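One array per animal was measured in 10 liver biopsies, grouped by the treatment label. Per the labels' protocols, cDNA from 1 µg of total RNA was labelled with Cy3. The authors deposited centred log values, used here as log2; how they were scanned, normalized, centred and logged is not given in the sources used here. Depth does not apply, and the number of arrays limits the precision. A probe table gave 1 symbol to 18188 of 45033 features, several to none of them, and a gene's features were averaged. No filter on dim features was possible.

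Fits used limma 3.58.1 (R 4.3.3) over all 16583 genes with Benjamini-Hochberg adjustment. Simulated data drew normal noise for each of the 16583 genes on its own, with that gene's spread. In them, 100 genes were shifted by 0.25 and 100 by 0.5 on the log2 scale. Of the shifts of 0.5, 88% were called, and of those of 0.25, 15%, with 5 false calls among 108 calls. The data gave 3399 calls, and with more calls the adjustment is less strict. Noise shared between genes on an array was not simulated, so these rates need not hold for the data. Members and lists were chosen with earlier results of these data known. The rule for named genes allowed any member and, per other list, up to 4 genes with the smallest p; per-animal values go to the 6 largest rises and falls per subunit and to stalk, 5S, RPS6, RPS19 and paralogue genes. RPL18 values beyond it were chosen after being seen. An exact two-sided permutation test over 252 assignments was an alternative. Animals have no numbers that pair them. No sequences were used.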

Additional observations from a re-analysis of the deposited data

Results flagged for a closer look

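Among 152 groups of 5 animals tested for 1 animal far from the rest, 7 stood out (4.61%). Chance gives 1 in 20 per group. The groups share the same arrays and are not independent, so the share cannot be judged against that rate. In vehicle animals, animal 1 was far below the others for RPL18 (-1.07, next -0.18), RPS15 (-0.80, next -0.22), RPL5 (-0.29, next -0.19) and RPL29 (-0.14, next -0.038). Vehicle animal 5 was far above the others for RPS27L (-0.022, next -0.24). Treated animal 4 was far above the others for RPL35A (0.21, next 0.061). For the large-subunit median minus the small-subunit median, vehicle animal 4 was far below the other vehicle animals (-0.035, next 0.038). Without vehicle animal 1, RPL5 and RPS15 still differed above 0 and RPL18 did not.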

How the results depend on the processing

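The number of arrays limits the precision, and signal over background is unknown. Fits without 1 animal gave 29 to 44 members higher (7.77% to 15.2% of all genes) and 1 lower (636 to 1603 of all 16583 genes). Their median differences were 0.21 to 0.28 over all members, 0.21 to 0.27 for the large and 0.25 to 0.32 for the small subunit. Large minus small was -0.068 to -0.023 in these fits (-0.053 with all animals, -0.018 after quantile normalization and -0.015 by single features). Quantile normalization (35 higher, 1 lower, median 0.21), a shift to the same array median (42, 1, 0.25), a median over features (41, 1, 0.26), trend and robust settings (40, 1, 0.26), array weights (43, 1, 0.26) and single features (48 of 87, 1, 0.24) kept the counts within 1.5 times.

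With the family contrast as a covariate, 11 members were higher and 0 lower in limma (1 below 0 at an unadjusted p under 0.05), and large minus small was 0.0016. The shifts to expressed and to silent families were chosen after seeing the data. The first gave 10 higher, 7 lower and medians of 0.11 (all), 0.092 (large) and 0.15 (small). The second gave 53 higher, 1 lower and a large-subunit median of 0.32. An exact permutation test cannot give a p under 0.0079, and after adjustment 0 of all 16583 genes passed, so 0 members did. Of the members, 35 had that smallest p and 48 a p under 0.05. The smallest p arises where the groups do not overlap, which was so for 8.79% of all genes (treated above) and 4.52% (treated below). The share of all genes with a p under 0.05 in this test was not counted.

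Members that changed sign were uncalled in the main setting. RPS2 became -0.019 after quantile normalization, -0.045 with the covariate, and ranged from -0.016 to 0.042 in fits without 1 animal (-0.016 and -0.014 without vehicle animal 1 or 5). RPL34 became 0.00011 by single feature, 0.052 with the covariate, 0.061 with the shift to silent families and ranged from -0.056 to 0.019 in fits without 1 animal (0.019 without treated animal 5). With the covariate RPL3L became -0.00085 and RPS23 0.055. RPL18 ranged from -0.0050 (without vehicle animal 1) to 0.30. After the shift to expressed families values were -0.034 for RPL10L, -0.046 for RPL29, -0.0079 for RPL31, -0.022 for RPL35, -0.089 for RPL36, -0.11 for RPL39L, -0.10 for RPL3L, -0.0041 for RPS15A, -0.14 for RPS2 and -0.034 for RPS24. These 10 changes, and that of RPL34 under the shift to silent families, follow from the shift itself, which moved every difference by -0.15 or 0.080. The cause of the other changes was not tested. No paired analysis was possible because animals carry no shared replicate number in the labels.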
